A study of Mus musculus with 4 samples.

Results

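Interferon-stimulated genes are the genes that a cell switches on when an interferon binds its receptor. The 46 described here were a list of gene symbols covering the usual families, and the list does not depend on a threshold on their values. They are 46 of the 15981 genes listed in any of the tables. The samples were 4 RNA-seq libraries of CD8+ T cells sorted from subcutaneous B16 melanomas, 2 of Tc1 cells and 2 of Tc9 cells. All cells were Thy1.1+ Pmel-1 cells, whose transgenic receptor recognizes a melanoma antigen, and all went by vein into Thy1.2+ C57BL/6 mice. The cells had been polarized in culture for 5 days, the tumors were 10 days old at transfer, and the cells were recovered 14 days later. The authors stimulated cells through CD3 and CD28, or in some experiments with the antigen peptide. Which was used for these cells is not stated. Tc1 cells were polarized with IL-2. Tc9 cells were primed with IL-4, TGF-β and an antibody that blocks IFN-γ, and were then kept in IL-2 like the Tc1 cells. Mice of both groups also received cyclophosphamide before transfer and peptide-pulsed dendritic cells with IL-2 after it. RNA of several mice was pooled for each library, so a library is a pool and not an animal. The labels do not say that the 2 libraries of a group came from separate transfers, so p-values measure only the spread between these libraries. The age of the mice was not given in the labels.

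As background, type I interferons signal through IFNAR1 and IFNAR2 to a complex that includes STAT2 and IRF9 and binds the interferon-stimulated response element (ISRE). IFN-γ signals through IFNGR1 and IFNGR2, many of its targets carry a gamma-activated site (GAS), and many are driven further by IRF1. The Ifit, Oas and Mx families are the classical targets of type I interferon, while the guanylate-binding proteins (Gbp) and immunity-related GTPases (Irg) are the classical targets of IFN-γ. The families overlap, since many of these genes answer to both kinds of interferon. Activated CD8+ T cells are themselves a main source of IFN-γ.

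The tables stop at different gene identifiers, and this decides what can be compared. Isg15 alone was reached by all 4 tables. A further 12 members were reached by Tc1 replicate 2 and both Tc9 tables, 13 by the replicate 2 tables only, and 20 by Tc9 replicate 2 only. The libraries held 30822953 to 31927162 counts, so raw counts can be set side by side, and a floor of 3 counts lay at 0.0940 to 0.0973 CPM, the count scaled to a common library size. Il9, the cytokine that names Tc9 cells, had 3 counts in Tc1 replicate 2, against 2601 and 2667 in Tc9 cells. Cd8a had 21622 and 21532 counts in Tc1 cells, against 21166 and 19330 in Tc9 cells, as CD8+ T cells should have. In pooled cells, fewer cells that express a gene and less RNA per cell cannot be told apart.

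The type I-type and IFN-γ-type genes are given apart, and the difference between the groups was not tested. Of the 10 Ifit, Mx and Oas genes, 5 had a log2 ratio of Tc9 replicate 2 over Tc1 replicate 2 under -1, as had 4.72% of the 6161 genes compared in these libraries. Among these 5, Mx2 passed the filter on low counts through its Tc1 count alone, so a low Tc9 value was built in. The other 5 lay between -0.92 and -0.01, with Ifit2 level, and in Tc9 replicate 1 the counts of Ifit2 and Ifit3 were above those of Tc1 replicate 2. Of the 7 Gbp and Irg genes compared, 2 (28.6%) were under -1, Gbp5 and Gbp7, while Gbp2 was level and the 4 Irg genes had a higher value in Tc9 cells. With 3 libraries only the 3 Ifit genes and 4 IFN-γ-type genes (Gbp2, Igtp, Irgm1 and Ifi47) were tested, and none passed. The Oas, Oasl and Mx genes, Gbp5 and Gbp7 were not in that test. Isg15 and Cxcl10, the chemokine IP-10, fell in tests that used more than these 2 libraries. With the settings used throughout, no member rose by a test and none was past a log2 ratio of 1. Under some alternatives Ifi47 and Irf1 passed the test as higher and Tgtp1 passed 1, as given with each gene.

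**Figure D1:**
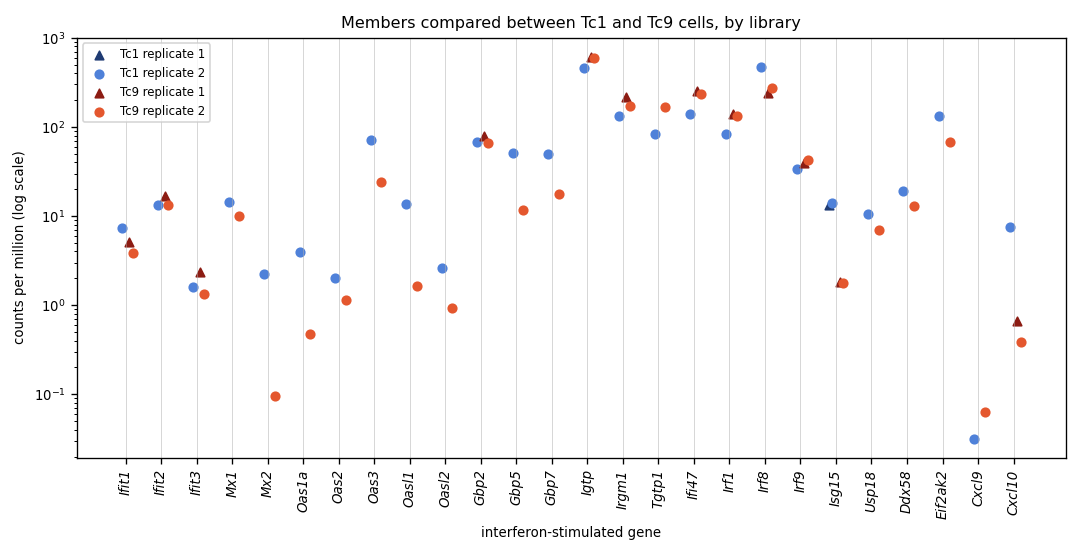
CPM on a log axis for the 26 members reached by at least 1 Tc1 table, each point 1 library; triangles are replicate 1 and circles replicate 2, blue for Tc1 and red for Tc9. Isg15 and Cxcl10 lie far lower in both Tc9 libraries, Ifit2 and Gbp2 lie together, and Cxcl9 sits at or under 2 counts in each library (its 0 in Tc9 replicate 1 is not drawn).

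Isg15 encodes a ubiquitin-like protein that is joined to other proteins after interferon exposure. The gene lies at chr4:156199424-156200818 (GRCm38.p6). It had 414 and 439 counts in Tc1 cells, against 57 and 55 in Tc9 cells. The groups did not overlap, which was so for 70.4% of the 1284 genes tested in all 4 libraries. Isg15 fell 7.58-fold in Tc9 cells (log2 fold change -2.92 ± 0.17 SE, n = 2 and 2, edgeR adjusted p = 1.76e-06), whereas 16.7% of all genes tested were called lower and 17.4% higher. It was the single member that this fit reached. Over the alternatives its log2 fold change lay between -2.97 and -2.53, with an adjusted p of at most 0.00218. Usp18, the protease that removes ISG15 from its targets and that also blocks the type I receptor, was reached by the replicate 2 libraries only. It had 327 counts in Tc1 cells and 216 in Tc9 cells, a log2 ratio of -0.59 (95% Wilson interval -0.84 to -0.35, which covers counting error only).

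The 250 bases before the start of Isg15 held 3 overlapping matches to the ISRE core, which is GAAA, 2 bases of any kind and GAAA on either strand. The stretch is shown because Isg15 is the member with the most replicates behind it. It lies at chr4:156200860-156200911 on the minus strand (GRCm38.p6, RefSeq), and capitals mark the matches.
Isg15: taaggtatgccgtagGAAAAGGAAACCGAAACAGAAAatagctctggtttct

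Cxcl10 and Cxcl9 encode ligands of CXCR3, the receptor that draws effector T cells into inflamed tissue. Cxcl10 (chr5:92346638-92348889) had 238 counts in Tc1 replicate 2, against 21 and 12 in Tc9 cells. Both Tc9 libraries were thus far under the single Tc1 library. Both were under it, by any amount, in 37.8% of the 2622 genes tested with these libraries. It fell 14.3-fold in the fit of these 3 libraries (log2 fold change -3.84 ± 0.34 SE, n = 1 and 2, edgeR adjusted p = 0.00271). That fit takes the lone Tc1 library to vary as much as the Tc9 libraries do, and it called 3.2% of the 2622 genes tested lower and 7.51% higher. Cxcl10 and Isg15 were the 2 members called out of 12 tested in it. Cxcl10 kept its direction in all 11 alternatives, and lost the call in 1 of the 9 that had a test, where no low-count filter was used (adjusted p = 0.203). On the log2(FPKM + 1) scale its log2 fold change was -2.49. Cxcl9 had 1 count in Tc1 replicate 2 and 0 and 2 in the Tc9 libraries, so no ratio is given.

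Since myeloid cells are a well-known source of CXCR3 ligands, their markers were looked at in the same libraries. Of 20 myeloid markers, 13 were reached by the replicate 2 libraries and 8 of these were at or under 3 counts in both. Their summed level was 11.9 CPM in Tc1 replicate 2 and 15.2 CPM in Tc9 replicate 2, of which Cd68 gave 7.04 and 14.0 CPM. Cd68, a lysosomal protein, had 226 and 221 counts in Tc1 cells, against 358 and 439 in Tc9 cells, and rose (log2 fold change 0.84 ± 0.15 SE, n = 2 and 2, edgeR adjusted p = 0.00295). The defining markers Lyz2, Csf1r and Adgre1 had 0 to 3 counts in all 3 libraries that reached them. Mpeg1 had 65, 19 and 11 counts and Ccr2 had 65, 4 and 4, in Tc1 replicate 2 and the 2 Tc9 libraries in turn. Both fell with 3 libraries, with log2 fold changes of -3.98 for Ccr2 and -2.11 for Mpeg1 (edgeR adjusted p = 0.00497 and 0.0285). Ccr2 passed the low-count filter through its Tc1 count alone, so a low Tc9 value was built into its being tested. The 5 dendritic cell markers reached summed to 49.1 CPM in Tc1 replicate 2 and 107 CPM in Tc9 replicate 2, where H2-Ab1, an MHC class II gene, made up most of it. H2-Ab1 and the B cell marker Cd79b rose with 3 libraries, with log2 fold changes of 1.95 and 1.46 (edgeR adjusted p = 0.0107 and 0.0219). The B cell, melanoma and stroma markers summed to 5.67, 2.61 and 14.5 CPM in the former and 15.6, 4.28 and 14.8 CPM in the latter. Single genes made up most of each sum. Cd79b gave 4.94 and 15.1 CPM, Pmel 2.23 and 3.71 CPM, and Pecam1 14.2 CPM in each library. The part of these cells in the members' values was not tested.

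The ISRE core match of Cxcl10 and those of 2 Oas genes are shown together, as genes of 2 families whose values were lower in Tc9 cells. The stretches lie at chr5:92349078-92349117, chr5:120907526-120907638 and chr5:120777710-120777749, all on the minus strand. Capitals mark ISRE core matches and, in Oas1a, also the first match, which is to the GAS letters TTCNNNGAA.
Cxcl10: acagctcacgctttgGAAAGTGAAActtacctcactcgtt
Oas1a: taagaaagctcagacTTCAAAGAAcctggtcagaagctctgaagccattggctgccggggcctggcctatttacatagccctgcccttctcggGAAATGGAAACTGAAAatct
Oas3: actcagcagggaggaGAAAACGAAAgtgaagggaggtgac

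Among the type I-type genes, those with a log2 ratio under -1 were Mx2 and 4 of the 5 Oas and Oasl genes. Of these, Mx2 passed the low-count filter through its Tc1 count alone. The Oas enzymes sense double-stranded RNA and make the messenger that activates RNase L. All 5 Oas and Oasl genes were reached by the replicate 2 libraries only, so their ratios have no replicate check. In the same 2 libraries, 10.5% of all genes had a log2 ratio over 1. Oas3 had 2220 counts in Tc1 replicate 2 against 752 in its Tc9 counterpart, for a log2 ratio of -1.56 (95% interval -1.68 to -1.44). Oasl1 had 429 and 52 counts, a log2 ratio of -3.00 (-3.46 to -2.63). Oas1a had 123 and 15 counts, a log2 ratio of -2.88 (-3.80 to -2.27). These 3 intervals lay wholly under -1. The share of all genes compared that had such an interval was not counted. On the log2(FPKM + 1) scale Oasl1 was at -2.07, Oas1a at -1.32 and Oas3 at -1.35. On that scale Oasl2 was at -0.54 and Oas2 at -0.15. Oasl2, with 82 and 29 counts, had a log2 ratio of -1.44 (-2.11 to -0.89). Oas2, with 63 and 36 counts, was nearer to level, at -0.77 (-1.39 to -0.22). The median of the 5 genes was -1.56, against 0.03 for all genes compared in these libraries. Oas2 and Oas3 had counts that were not whole in some library, as happens when reads are split between similar genes.

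The Mx proteins are dynamin-like GTPases that restrict viruses. Mx2 had 70 counts in Tc1 replicate 2 against 3 in its Tc9 counterpart, for a log2 ratio of -3.85 with a wide interval of -6.13 to -2.96. Its place among the genes compared rested on its Tc1 count alone, so a low Tc9 value was built in. Mx1 had 446 and 318 counts, a log2 ratio of only -0.48 (-0.69 to -0.28). The interval of Mx2 covers counting error only, and on the log2(FPKM + 1) scale the 2 genes were closer, at -0.91 for Mx2 and -0.48 for Mx1.

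The Ifit genes, whose proteins bind viral RNA, did not share the low values of Oas1a or Mx2. All 3 were also reached by Tc9 replicate 1. With these 3 libraries, both Tc9 values lay below the Tc1 value in 37.8% of the 2622 genes tested. Ifit1 had 232 counts in Tc1 replicate 2, against 159 and 122 in Tc9 cells (log2 fold change -0.72 ± 0.26 SE, n = 1 and 2, edgeR adjusted p = 0.151). Both Tc9 libraries were lower, and the difference passed the threshold with normalization factors of DESeq2 (adjusted p = 0.0349) or of trimmed means over this range (0.0367), but in no other alternative. Ifit2 had 417 counts against 522 and 415, and its Tc1 value lay between those of the Tc9 libraries (log2 fold change 0.17 ± 0.24 SE, edgeR adjusted p = 0.691). Ifit3 had 50 counts against 73 and 42, and here too the groups overlapped (log2 fold change 0.20 ± 0.42 SE, edgeR adjusted p = 0.796). The 10 type I-type genes together, Mx2 included, had a median log2 ratio of -1.18 in the replicate 2 libraries. On the log2(FPKM + 1) scale, where FPKM is the count scaled by gene length and library depth, that median was -0.57.

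**Figure D2:**
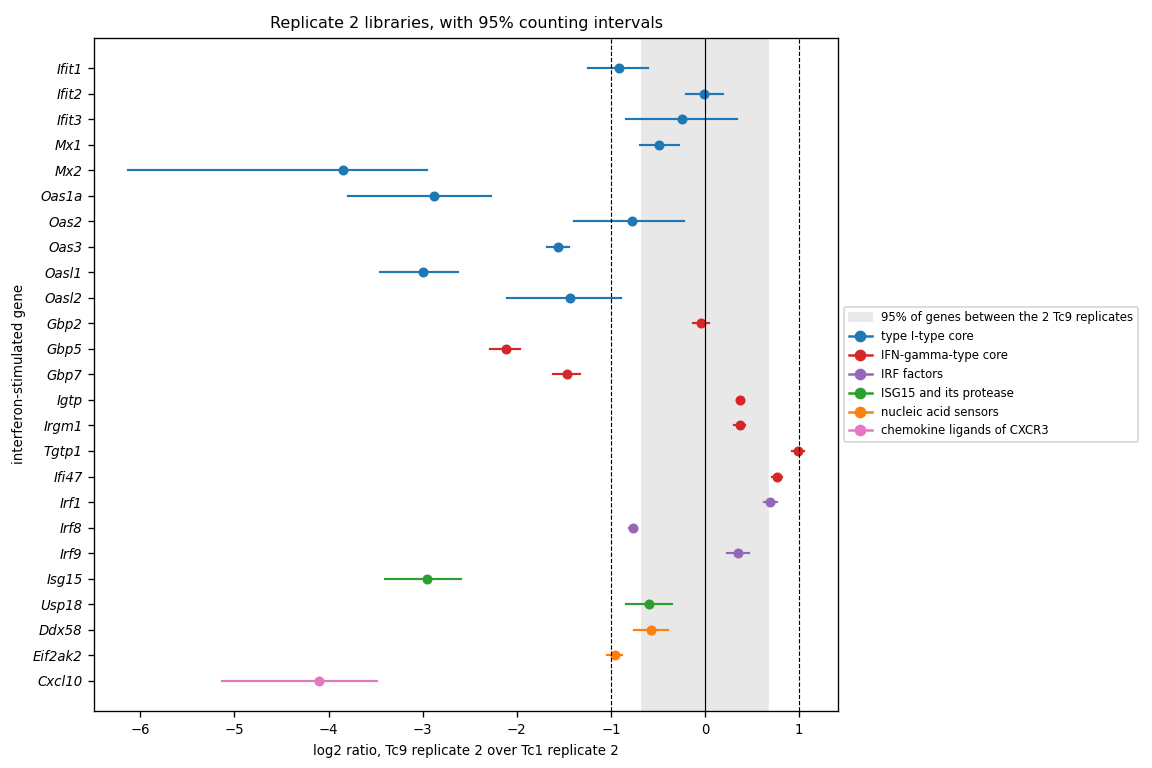
Log2 ratio of Tc9 replicate 2 over Tc1 replicate 2 for the 25 members that passed the low-count filter; bars are 95% Wilson intervals for counting error, colors give the gene's role, dashed lines mark -1 and 1, and the grey band holds 95% of the differences between the 2 Tc9 replicates (0.67 on the log2 scale). All 10 type I-type genes lie at or left of 0, the 4 Irg genes lie right of it, and 9 members lie left of -1.

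Of the IFN-γ-type genes, the guanylate-binding proteins coat the vacuoles of pathogens and help inflammasomes form. Gbp5 had 1616 counts in Tc1 replicate 2 against 370 in its Tc9 counterpart, for a log2 ratio of -2.12 (95% interval -2.29 to -1.96). Gbp7 had 1541 and 555 counts, a log2 ratio of -1.47 (-1.61 to -1.33). These 2 genes were past -1, but have 1 library a group. Gbp2 had 2143 counts in Tc1 replicate 2, against 2502 and 2083 in Tc9 cells, so the groups overlapped (log2 fold change 0.10 ± 0.23 SE, n = 1 and 2, edgeR adjusted p = 0.819). Gbp3 was read in Tc9 replicate 2 only, with 227 counts. Among Gbp genes that are no members, and were named after their values were seen, Gbp6 had 5138 and 4718 counts in Tc1 cells, against 5894 and 4821 in Tc9 cells (log2 fold change 0.12 ± 0.13 SE, n = 2 and 2, edgeR adjusted p = 0.472). Gbp4 had a log2 fold change of 0.29 with 3 libraries (edgeR adjusted p = 0.469), and Gbp9 a log2 ratio of -0.34 in the replicate 2 libraries.

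The Irg proteins are GTPases that act on the vacuoles of intracellular parasites. Igtp, also called Irgm3, had 14288 counts in Tc1 replicate 2, against 19261 and 18442 in Tc9 cells (log2 fold change 0.40 ± 0.20 SE, n = 1 and 2, edgeR adjusted p = 0.272). Irgm1, a regulatory member of the family, had 4208 counts against 6852 and 5429 (log2 fold change 0.55 ± 0.25 SE, edgeR adjusted p = 0.222). Ifi47 had 4351 counts against 7846 and 7368 (log2 fold change 0.81 ± 0.22 SE, edgeR adjusted p = 0.078). In all 3 genes both Tc9 libraries were above the Tc1 library, as in 44.0% of the 2622 genes tested, and none passed the test. Ifi47 had an adjusted p under 0.05 in 6 of the 9 alternatives with a test, with adjusted p-values from 0.00983 to 0.239. Tgtp1 had 2629 counts in Tc1 replicate 2 against 5207 in its Tc9 counterpart, for a log2 ratio of 0.99 (95% interval 0.92 to 1.05), which passed 1 when libraries were scaled by depth alone (1.04) and on the log2(FPKM + 1) scale (1.01).

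Tgtp1 has a nearly identical neighbor, Tgtp2, with which it can share reads. Their summed counts were 5228 and 8578, a log2 ratio of 0.715, so the sum was also higher in Tc9 replicate 2. Tgtp2, which is no member, was reached by all 4 tables and had 2826 and 2600 counts in Tc1 cells and 4464 and 3371 in Tc9 cells. It rose (log2 fold change 0.53 ± 0.14 SE, n = 2 and 2, edgeR adjusted p = 0.0178). The call was lost without Tc1 replicate 1 (adjusted p = 0.161), without Tc1 replicate 2 (0.293) and with no low-count filter (0.101). The median over the 7 IFN-γ-type genes compared was 0.37, with a range from -2.12 to 0.99.

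The upstream stretches of this group are shown to set genes with higher values in Tc9 cells (Igtp, Irgm1, Tgtp1) beside one with a lower value (Gbp7), with Gbp2, whose groups overlapped, and with Ifit1 for the type I-type genes. They lie at chr11:58199496-58199546 on the plus strand, chr11:48871421-48871465 and chr11:48992299-48992349 on the minus strand, and chr3:142530215-142530307, chr3:142620589-142620628 and chr19:34640770-34640828 on the plus strand. Capitals mark GAS matches (TTC, 3 bases, GAA) and ISRE core matches, which read TTTC, 2 bases, TTTC where they lie on the other strand.
Igtp: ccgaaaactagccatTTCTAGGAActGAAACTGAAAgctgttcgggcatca
Irgm1: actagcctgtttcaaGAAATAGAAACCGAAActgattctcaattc
Tgtp1: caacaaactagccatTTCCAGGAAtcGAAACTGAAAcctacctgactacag
Gbp7: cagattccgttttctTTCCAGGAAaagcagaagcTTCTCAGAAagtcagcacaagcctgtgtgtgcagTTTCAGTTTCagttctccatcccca
Gbp2: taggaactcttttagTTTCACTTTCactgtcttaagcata
Ifit1: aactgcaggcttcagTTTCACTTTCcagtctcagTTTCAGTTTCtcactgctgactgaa

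A promoter sequence was at hand for 36 of the 46 members. The ISRE core was present in 17 of them (47.2%), against 3.46% of 27025 promoters in all. The GAS letters were present in 13 (36.1%), against 8.13% of all. By group, 4 of 7 type I-type promoters and 8 of 9 IFN-γ-type promoters held the ISRE core, and 2 of 7 and 5 of 9 held the GAS letters. In Igtp, Irgm2 and Tgtp1 the GAS match began 11 bases before the ISRE core match. Genes with lower and with higher values in Tc9 cells thus both carried ISRE core matches. A match is a description of the letters and does not show that a factor was bound.

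The IRF family members are the transcription factors of the pathway. Irf1, a primary target of IFN-γ signalling, had 2590 counts in Tc1 replicate 2, against 4398 and 4184 in Tc9 cells (log2 fold change 0.73 ± 0.22 SE, n = 1 and 2, edgeR adjusted p = 0.0975). Irf8, which also acts in effector CD8+ T cells, had 14755 counts against 7556 and 8654 (log2 fold change -0.86 ± 0.21 SE, edgeR adjusted p = 0.0567). Neither passed the test, although both Tc9 libraries lay above the Tc1 library for Irf1 and below it for Irf8, as in 44.0% and 37.8% of all genes tested. Irf1 and Irf8 were each under 0.05 in 6 of the 9 alternatives with a test, with adjusted p-values from 0.0229 to 0.25 for Irf1 and from 0.00145 to 0.25 for Irf8. Irf9, the DNA-binding part of the type I complex, had 1054 counts against 1239 and 1345 (log2 fold change 0.29 ± 0.21 SE, edgeR adjusted p = 0.412). The Irf1 promoter held a GAS match and no ISRE core, and its stretch at chr11:53769909-53769947 on the plus strand is shown for that contrast with the Irg genes.
Irf1: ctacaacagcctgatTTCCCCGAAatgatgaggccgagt

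Of the cytoplasmic sensors of nucleic acid, 2 of 5 could be compared. Eif2ak2, the kinase PKR that halts translation, had 4171 counts in Tc1 replicate 2 against 2139 in its Tc9 counterpart, for a log2 ratio of -0.96 (95% interval -1.04 to -0.89). Ddx58, the RNA sensor RIG-I, had 607 and 407 counts, a log2 ratio of -0.57 (-0.76 to -0.39). Both values were lower in Tc9 cells and neither was past -1. Over all roles, 9 of the 25 members with a ratio in these 2 libraries were under -1 and 0 were over 1, against 4.72% and 10.5% of all genes. On the log2(FPKM + 1) scale 7 members were under -1, since Mx2 (-0.91) and Oasl2 (-0.54) no longer were. Mx2 passed the filter through its Tc1 count alone, so a low Tc9 value was built into its being there. The remaining 21 members had no ratio: Cxcl9 was under the filter, and 20 had no Tc1 value.

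The genes that make, receive and pass on the interferon signal were looked at as a list of 42. Ifng itself had 15303 counts in Tc1 replicate 2, against 5097 and 4700 in Tc9 cells. It fell (log2 fold change -1.64 ± 0.21 SE, n = 1 and 2, edgeR adjusted p = 0.00747). Ifngr2, the signalling chain of its receptor, had 393 counts against 1309 and 1104, and rose (log2 fold change 1.62 ± 0.24 SE, edgeR adjusted p = 0.0124). Irf4, a factor of activated T cells that binds composite sites with BATF, had 18150 counts against 44730 and 42747, and rose (log2 fold change 1.27 ± 0.20 SE, edgeR adjusted p = 0.0148). These 3 were the only calls among 16 genes of the list tested with 3 libraries, with 12.5% higher and 6.25% lower against 7.51% and 3.2% of all genes tested. Each was lost with no low-count filter (adjusted p of 0.203, 0.206 and 0.203). The part of Ifng or Ifngr2 in the members' values was not tested.

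Most of the other signalling genes compared lay closer to level. Stat2, used by type I interferon, had 1434 and 2337 counts in the replicate 2 libraries, a log2 ratio of 0.70 (95% interval 0.61 to 0.80). The receptor chains Ifnar1, Ifnar2 and Ifngr1 had log2 fold changes of -0.36, -0.17 and -0.22 with 3 libraries, none past the test (edgeR adjusted p = 0.347, 0.648 and 0.529). Socs1, an inhibitor of JAK kinases, had 1467 counts in Tc1 replicate 2, against 2404 and 3646 in Tc9 cells, a log2 fold change of 1.04 ± 0.31 (SE, edgeR adjusted p = 0.0975). Mb21d1, the DNA sensor cGAS, had 962 and 366 counts in the same libraries as Stat2, a log2 ratio of -1.39 (-1.57 to -1.22). Ifnb1, a type I interferon, had 1 count in Tc1 replicate 2 and 0 in Tc9 replicate 2, so no message for it was detectable beyond the floor in either. Stat2, Socs1, Mb21d1 and Ifnb1 and the receptor chains were named after their values were seen.

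**Figure D3:**
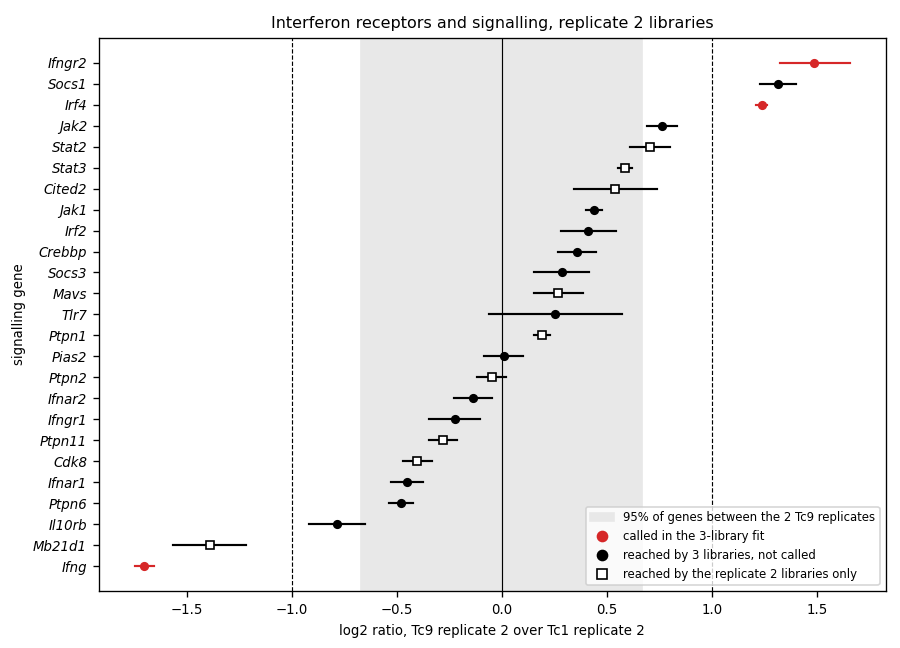
Log2 ratio of Tc9 replicate 2 over Tc1 replicate 2 for 25 signalling genes that passed the low-count filter, with 95% Wilson intervals for counting error; red points passed the test with 3 libraries, and the grey band holds 95% of the differences between the 2 Tc9 replicates. Ifng lies lowest at -1.70 and Ifngr2 highest at 1.49.

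A wider list of 111 further interferon-stimulated genes gave other members of these families. With all 4 libraries 14 were tested, of which 6 were called lower and 1, Tgtp2, higher, against 16.7% and 17.4% of all genes. Epsti1 had 2492 and 2364 counts in Tc1 cells and 861 and 667 in Tc9 cells, and fell (log2 fold change -1.66 ± 0.14 SE, n = 2 and 2, edgeR adjusted p = 2.6e-05). Apobec1, an RNA-editing deaminase, had 69 and 72 counts against 23 and 14, and fell (log2 fold change -1.92 ± 0.30 SE, edgeR adjusted p = 0.00116). On the log2(FPKM + 1) scale its log2 fold change was -0.80. Cd69, an early activation antigen that holds T cells in tissue, had 1232 and 1108 counts against 511 and 449, and fell (log2 fold change -1.28 ± 0.13 SE, edgeR adjusted p = 6.23e-05). The groups of these 3 genes did not overlap, as for 70.4% of all genes tested. Mndal, of the Ifi200 family of DNA-binding proteins, fell (log2 fold change -0.93 ± 0.19 SE, edgeR adjusted p = 0.00472). Ifi203 of the same family was reached by 3 libraries, with 625 counts against 332 and 254, and fell (log2 fold change -1.09 ± 0.24 SE, n = 1 and 2, edgeR adjusted p = 0.0426). Mndal lost its call without Tc1 replicate 2 (edgeR adjusted p = 0.10) and with no low-count filter (0.0565), and Ifi203 in limma on log2(FPKM + 0.1) (0.0511) and with no low-count filter (0.262). The other calls among the 6 were Tdrd7 and Ifi208, named after their values were seen. Without Tc1 replicate 2 the 6 calls became 3, as Mndal, Tdrd7 (0.151) and Ifi208 (0.0853) were lost, and without Tc1 replicate 1 Tdrd7 (0.145) and Ifi208 (0.36) were lost. Ifi208 was under 0.05 in 5 of 12 alternatives, with a value of 0.111 without Tc9 replicate 2, and both genes were at 0.122 in the DESeq2 Wald test.

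In the replicate 2 libraries 58 of these further genes could be compared, of which 16 (27.6%) were under -1 and 0 over 1, against 4.72% and 10.5% of all genes compared. Of the 16, Ifi204, Phf11d and Ddx60 passed the filter through their Tc1 counts alone, so a low Tc9 value was built into their being there. Phf11a had 74 counts in Tc1 cells and 10 in Tc9 cells, a log2 ratio of -2.66 (95% interval -3.82 to -1.95). Its neighbor in sequence, Phf11b, had 859 and 184 counts, a log2 ratio of -2.21 (-2.45 to -1.99). Ifi209 had 284 and 66 counts, a log2 ratio of -2.07 (-2.49 to -1.72). Cmpk2, a mitochondrial nucleotide kinase, and Hsh2d, an adaptor protein, were each at -1.73. The median over the 58 genes was -0.34, against 0.03 for all genes. Tap1, which loads peptides for MHC class I, and Trim21, an antibody receptor in the cytosol, were on the other side of 0, at 0.48 and 0.66, and were named after their values were seen.

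The level of all 46 members could be read in Tc9 replicate 2, as FPKM, which sets genes of unequal length on 1 scale. The IFN-γ-type genes had the higher levels there, with a median of 39.7 FPKM, and the type I-type genes the lower, with a median of 0.785 FPKM. The median over all 15442 listed genes was 5.09 FPKM and over all members 3.85. Igtp was highest at 311 FPKM, followed by Ifi47 at 149, Samhd1 at 105 and Irf8 at 103. In Tc1 replicate 2 the order of the first 3 members it reached was Igtp at 233, Irf8 at 170 and Ifi47 at 85.2 FPKM. The type I-type gene with the highest level was Oas3 in both libraries, at 15.2 FPKM in Tc1 replicate 2 and 5.33 in Tc9 replicate 2.

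**Figure D4:**
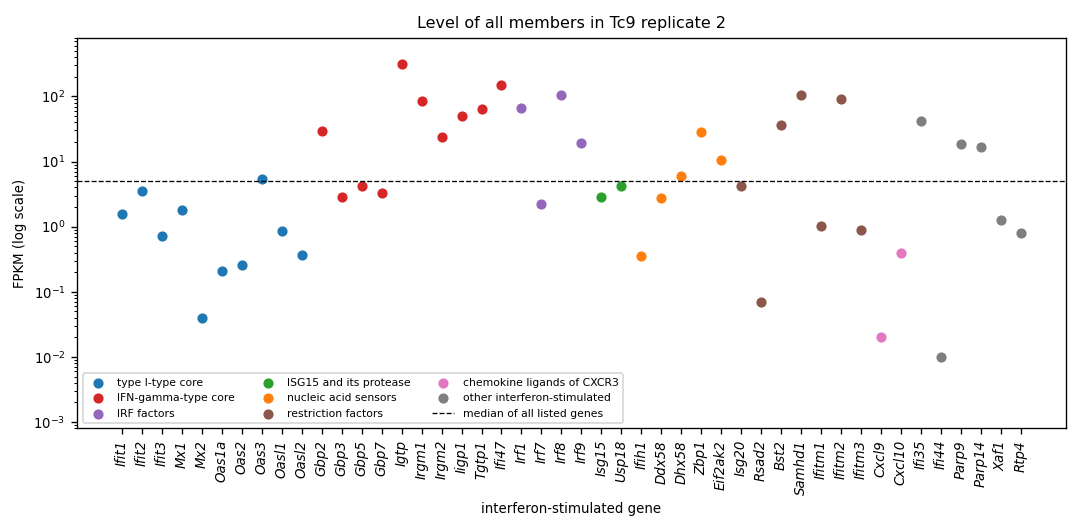
FPKM on a log axis in Tc9 replicate 2 for all 46 members in the order of their roles, with 1 point per gene; the dashed line is the median of all listed genes, 5.09 FPKM. Of the 10 type I-type genes only Oas3 lies above the line, whereas 7 of the 10 IFN-γ-type genes do.

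For the 20 members without a Tc1 value this level is all that can be said. Among restriction factors, Samhd1, which depletes nucleotides, was at 105 FPKM, Ifitm2, which blocks virus entry, at 92.6, and Bst2, which tethers virus particles, at 36.7. The related Ifitm1 and Ifitm3 were near 1 FPKM, with 18 and 14 counts. Isg20, an exonuclease, was at 4.26 FPKM, and Rsad2, the antiviral enzyme viperin, had 8 counts. This role thus spanned genes among the highest and the lowest of all members. Among sensors, Zbp1, a sensor that can start necroptosis, was at 28.3 FPKM, Dhx58 (LGP2) at 5.96 and Ifih1 (MDA5) at 0.36. Irf7, the factor that amplifies type I interferon, was at 2.23 FPKM. The IFN-γ-type genes Iigp1, Irgm2 and Gbp3 were at 50.4, 23.9 and 2.83 FPKM. Of the other genes, Ifi35 was at 41.8 FPKM and the partners Parp9 and Parp14, which add ADP-ribose, at 18.5 and 16.8. Xaf1 was at 1.25 FPKM and Rtp4 at 0.81, and Ifi44 had 1 count.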

How the data were processed

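RNA of sorted tumor-infiltrating cells was sequenced from DNB libraries. The authors deposited, for each library, expected counts and FPKM per gene on the mm10 build; the aligner and counter are not given in the sources used here, nor is strand, so reads of a gene and its antisense partner cannot be told apart. The members and gene lists were chosen with earlier results of these data known. Each table stops at its own last identifier in character order; genes within its reach that it does not list were set to 0, and others were left out. Depth (31834276 and 31927162 counts for Tc1, 31105615 and 30822953 for Tc9) was derived from counts and FPKM at equal gene length, relative to the complete table. The authors' expected counts were rounded to whole numbers. Genes passed filterByExpr with a minimum count of 10. edgeR 4.0.16 quasi-likelihood tests (R 4.3.3, two-sided, Benjamini-Hochberg over all genes tested, threshold 0.05) compared Tc9 with Tc1 in all 4 libraries and in Tc1 replicate 2 against both Tc9 libraries, with trimmed-mean (TMM) factors of 0.983 to 1.02. The fits were tested on simulated data. With 1 library a group (replicate 2) a log2 ratio with a prior count of 2 and its 95% Wilson interval are given without a test, and a gene past 1 counts as called. Such intervals and the floor of 3 counts cover counting error only. limma 3.58.1 on deposited FPKM and DESeq2 1.42.0 served as alternatives. Named genes were all members, every signalling gene called in a fit of 3 or 4 libraries, and the 5 further genes with the largest call in each direction. Promoters (250 bases before the start) are RefSeq's, GRCm38.p6, which has the coordinates of mm10. The 2 libraries of a group differed by more than sampling noise, with a chi-square per gene of 4.4 for Tc1 and 57.0 for Tc9. 1 signalling gene is not reported here.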

Additional observations from a re-analysis of the deposited data

How the results depend on the processing

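With all 4 libraries, 224 genes were higher and 214 lower in Tc9 cells. Leaving out 1 library gave 73 to 399 higher and 48 to 407 lower, with fewer calls when a Tc1 library was left out (94 and 62 without replicate 1, 73 and 48 without replicate 2) than when a Tc9 library was (399 and 407, 346 and 354); the lone sample is then assumed to vary like the other group. No low-count filter gave 130 and 110. Isg15 stayed called in all 12 alternatives of this fit with all 4 libraries. With 3 libraries the 197 higher and 84 lower became 321 and 216 with DESeq2 size factors, 328 and 211 with TMM over this range (chosen after seeing the data), and 371 and 163 with depth alone. The lower count was 157 in limma with Tc1 replicate 1 added and 144 at an adjusted p under 0.1. With no filter edgeR made 0 and 0 calls, though 598 of 3431 genes had an unadjusted p under 0.05. The DESeq2 Wald test, run on the filtered genes, made 338. Leaving out 1 Tc9 library gave values on both sides of 0 for Ifit2 (-0.006 to 0.32), Ifit3 (-0.24 to 0.53) and Gbp2 (-0.04 to 0.22), which had not passed the test. In the replicate 2 libraries 1 member, Tgtp1, passed 1 with depth alone and on the log2(FPKM + 1) scale, and the type I-type median moved from -1.18 to -0.57 on that scale. The cause of these moves was not tested.

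With the replicate number as a block, 231 genes were higher and 213 lower in all 4 libraries, and 406 of 438 calls were shared. Libraries of the same number did not deviate together (r = -0.065 over 1284 genes). With 2 libraries a group, this check cannot show whether the numbers pair them.

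Each result on a gene that Tc1 replicate 1 does not reach rests on 1 Tc1 library or on 1 library a group.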
